A study of Bos taurus with 25 samples.

Results

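The CIDE genes CIDEA, CIDEB and CIDEC were followed in the liver and mammary gland of lactating dairy cows given vitamin injections. All array probes named for these 3 genes, of 11068 named genes on the array, were taken: 4 probes of CIDEA, 1 of CIDEB and 2 of CIDEC. Each probe was kept apart, because the 4 CIDEA probes did not move together. The family was selected on measured values, namely the log2 signals of the CIDEA probes in the mammary gland of B9 and control cows, so the difference between these groups in CIDEA is described below without a test. The same arrays also enter other comparisons, which are tested: all of them that of the tissues, and the control arrays those with B12 and B9 + B12 cows and the differences in effect between tissues. For CIDEA, the p-values of these comparisons are therefore not independent of the selection.

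The cows were multiparous Holsteins, biopsied 64 ± 3 days after calving. All of them received weekly intramuscular injections of 5 mL. Control cows received saline, the B9 treatment was 320 mg of folic acid, the B12 treatment was 10 mg of cyanocobalamin, and the B9 + B12 treatment was 320 mg of folic acid with 10 mg of cyanocobalamin. In the liver there were 3 control, 3 B9, 4 B12 and 2 B9 + B12 cows, and in the mammary gland 3, 3, 4 and 3. The 25 arrays (liver 12, mammary gland 13) came from 13 cows. Each array carried RNA of a single cow, and 12 cows gave both tissues, while cow 31 (B9 + B12) gave the mammary gland only. Cows are the replicates, so p-values of treatment comparisons within a tissue measure the spread between cows. The limma fits over both tissues took the 25 arrays as independent, although 12 cows gave both tissues. The permutation test between tissues paired them by cow.

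CIDE proteins sit on the surface of lipid droplets and the endoplasmic reticulum. CIDEA and CIDEC gather at the contact between neighbouring droplets and let lipid pass from the smaller to the larger, so that droplets grow. CIDEA is known from brown fat and from the lactating mammary gland, where milk fat leaves the epithelial cell as membrane-wrapped droplets. CIDEB is the form of the hepatocyte and intestine, where it acts in loading very low density lipoprotein (VLDL) with lipid. CIDEC, also called FSP27, is typical of white fat and of the fat-loaded liver. The family shares its N-terminal domain with the DNA fragmentation factors DFFA and DFFB.

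Signals are log2 values that were equalised between arrays within each tissue, and a difference of 1 is a 2-fold difference. All 7 CIDE probes were well above background on all 12 liver arrays. On the 13 mammary arrays this held throughout for 6 probes, while the CIDEC probe A_73_P258781 was above background on 4 of 13 arrays, 1 in each treatment group. No CIDE probe was saturated. Across all probes, 71.2 to 84.2% were well above background on the liver arrays and 64.4 to 76.5% on the mammary arrays. The tissue labels matched the means of marker genes: the mean log2 signal of 9 hepatocyte genes was 17.5 to 17.77 on liver arrays and 6.63 to 8.99 on mammary arrays, and that of 10 genes of the mammary epithelium was 9.03 to 11.54 and 16.04 to 16.59. In the latter list 2 keratins ran the other way, KRT18 (liver 14.54 to 16.14, mammary gland 8.81 to 11.59) and KRT8 (14.17 to 15.32 and 10.39 to 12.29). XDH was bright in the liver too (14.96 to 16.04), so the epithelial mean there is not a measure of mammary RNA alone. Some arrays held more of the other tissue's markers than the rest. The mammary epithelial mean in the liver was 9.4 to 9.5 in control, 9.67 to 10.68 in B9, 9.82 to 9.93 in B9 + B12 and 9.03 to 11.54 in B12 cows, so that every B9 and B9 + B12 liver lay above every control liver. It was highest in B12 cows 36 (11.54) and 37 (11.21), and the hepatocyte mean in the mammary gland in B9 cow 57 (8.99) and B9 + B12 cow 31 (8.12). With those arrays left out, each count of called CIDE probes given below was the same. The count at a raw p below 0.05 went from 0 to 1 of 3 tested probes for the mammary gland under B9 and for the mammary interaction.

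The CIDE genes differed in level between the tissues. For this comparison all 25 arrays were normalised together. CIDEA was higher in the mammary gland, CIDEB was higher in the liver, and CIDEC was higher in the liver by a smaller margin. Of the 7 probes, 6 differed by at least 2-fold at an adjusted p of 0.05 (limma, a moderated linear model), namely the 4 of CIDEA towards the mammary gland and 1 each of CIDEB and CIDEC towards the liver. With the cow as a fixed block, over the 12 cows with both tissues, 6 of 7 were called too. The smallest limma adjusted p was then 6.84e-11, against 5.78e-17 without the block. Over all probes, 9.88% were called higher in the mammary gland and 8.80% higher in the liver. In these bulk biopsies, fewer cells of a type and less RNA per cell cannot be told apart.

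The CIDEA probe A_73_100290 had a joint log2 signal of 11.15 ± 0.53 (SD, n = 12) in the liver and of 15.68 ± 0.8 (n = 13) on the mammary arrays. The mammary gland was 22.6-fold higher (log2 difference 4.5, SE 0.2, limma adjusted p = 9.67e-14), and the 12 cows with both tissues showed differences of 3.73 to 5.3. The other CIDEA probes gave 16.1-fold for A_73_P472288, 50.9-fold for A_73_P436496 and 45.4-fold for A_73_P044521. All 4 probes were higher in the mammary gland in 12 of 12 cows, and the exact sign-flip permutation p of 0.000488 is the smallest that 12 cows allow.

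CIDEB showed the opposite order. Its joint log2 signal was 13.45 ± 0.26 (n = 12) in hepatic and 8.08 ± 0.46 (n = 13) in mammary tissue. The liver was 40.2-fold higher (log2 difference, mammary gland minus liver, of -5.33, SE 0.15, limma adjusted p = 5.78e-17), with cow differences from -6.19 to -4.54. No liver array overlapped a mammary array. The CIDEC probe A_73_119459 was 3.91-fold higher in the liver (-1.97, SE 0.2, limma adjusted p = 4.51e-08), at 8.84 ± 0.47 against 6.92 ± 0.62. Its cow differences ran from -3.36 to -0.58. The direction held but the folds depended on the values used: with the deposited values, which were equalised within each tissue, the log2 difference was -7.11 for CIDEB, -3.44 for this CIDEC probe and 2.95 for CIDEA A_73_100290. The other CIDEC probe, A_73_P258781, differed by 1.28-fold (-0.35, SE 0.07, limma adjusted p = 0.000163), short of 2-fold and mostly at background in the mammary gland. With arrays scaled to their 75th percentile its difference was 0.53 towards the mammary gland from the normexp-corrected signal, but -2, towards the liver, from the scanner's processed signal. Thus for this probe direction and size depended on the background correction and scaling.

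**Figure D1:**
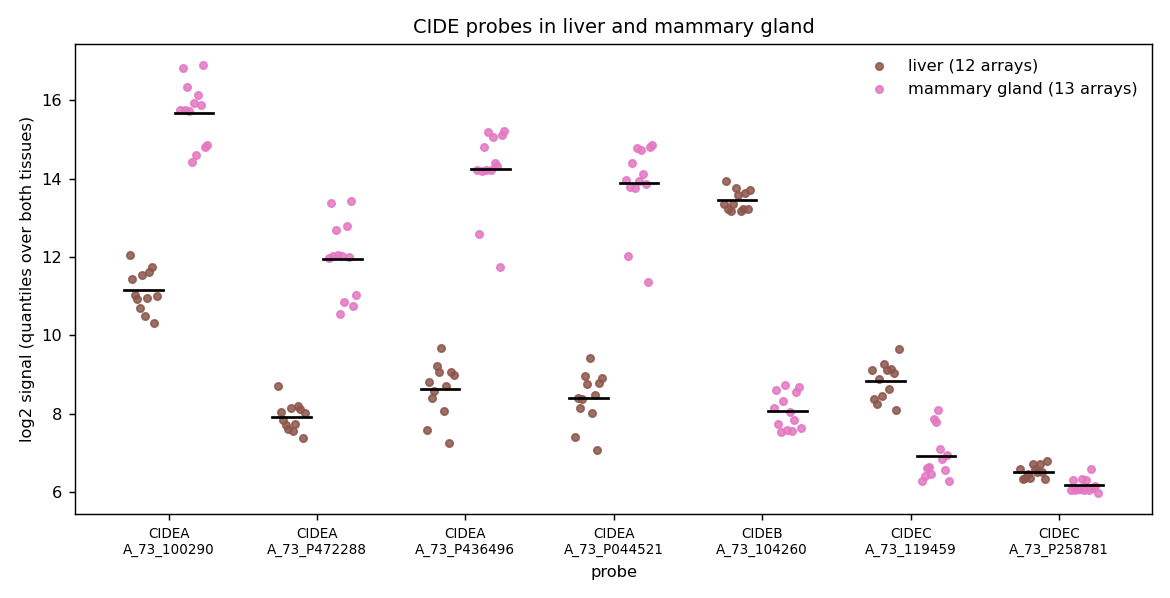
Joint log2 signal of the 7 CIDE probes (vertical axis, all 25 arrays normalised together) in the liver and the mammary gland. Each point is an array, and short black bars are the means of a tissue. The CIDEA points lie higher in the mammary gland than in the liver, the CIDEB points lower, and the CIDEC A_73_119459 points lower by less. Levels of different probes are not comparable.

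Genes around the family followed the same division for the milk fat globule and VLDL lists. All 9 milk fat globule genes were called higher in the mammary gland, with a median difference of 7.64 on the log2 scale against 0.025 over all probes. Among them were BTN1A1, butyrophilin of the globule membrane (10.96, SE 0.044), PLIN2, the perilipin of milk fat droplets (5.18, SE 0.22), and XDH, xanthine dehydrogenase, which binds butyrophilin (2.89, SE 0.1). Of 7 VLDL assembly genes, 4 were called higher in the liver (median -3.01), with MTTP, which transfers triglyceride to the nascent particle, at -3.01 (SE 0.15). PPARG, a regulator of CIDEA and CIDEC in fat cells, was higher in the mammary gland (2.64, SE 0.097). HNF4A, the hepatocyte factor, was higher in the liver (-8.78, SE 0.087). Of the other lists, 3 of 13 lipid droplet proteins, 0 of 6 lipolysis genes, 2 of 7 triglyceride synthesis genes, 3 of 11 transcription factors and 2 of 4 AMPK subunits were called higher in the mammary gland, and 4, 3, 4, 3 and 0 higher in the liver. The DNA fragmentation factors did not pass 2-fold, at -0.22 (SE 0.058) for DFFA and 0.44 (SE 0.074) for DFFB. PLIN1, the perilipin of fat cells, differed by -0.17 (SE 0.033) and was above background on 9 of 13 mammary arrays.

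The 4 CIDEA probes formed 2 pairs. The first pair, A_73_100290 and A_73_P472288, and the second pair, A_73_P436496 and A_73_P044521, carried the same transcript name on the array, although 9 RefSeq transcripts are listed for the gene, and the part of the transcript that each probe reads was not analysed here. Probes of a pair moved together from cow to cow. After subtraction of group means, their correlation was 0.984 for the first pair and 0.994 for the second over the 13 mammary arrays, and 0.975 and 0.989 over the 12 liver arrays. Probes of different pairs ran against each other, with correlations of -0.703 to -0.685 over the mammary arrays and -0.499 to -0.421 over the liver arrays. The difference in log2 signal between the probes of a pair varied with an SD of 0.13 and 0.086 over the mammary arrays and of 0.18 and 0.11 over the liver arrays. The correlations share arrays, cows and, within a pair, a transcript name, and are given as a description.

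The signal of the first pair minus that of the second was then set out by cow. Its zero has no meaning, since probes differ in brightness, and only differences between cows are read. For the mammary gland it was -2.46 in cow 39, -2.14 in cow 52, -2.12 in cow 41 and -2.08 in cow 57. It lay between -0.076 and 0.36 in cows 31, 36, 37, 38, 40, 42 and 43. It was 2.86 in cow 32 and 3.63 in cow 51. The values therefore sat in 3 ranges, separated by gaps of 2.01 and 2.5, while the next gap was 0.77.

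The livers of the same cows, whose signals were not used in the choice of probes, kept this order of ranges. The pair difference was -0.67 in cow 41, -0.2 in cow 52, -0.015 in cow 39 and 0.57 in cow 57. It was 0.89 to 1.46 in the 6 cows 36, 37, 38, 40, 42 and 43, and 3.34 in cow 51 and 3.39 in cow 32. No cow of one range overlapped the next, although the lower gap in the liver, from 0.57 to 0.89, was narrower than the widest step inside the lowest range, from -0.015 to 0.57, so that the liver values alone did not set that range apart. Because the values lay in separate ranges no pooled correlation was computed. Within the 6 cows of the middle range, the liver and mammary values had a Pearson r of 0.464 (exact permutation p = 0.482) and a Spearman rho of 0.429 (exact permutation p = 0.419), and r was 0.891 without the 2 cows farthest from the median. These 6 cows were grouped by their mammary values, which spanned only 0.0042 to 0.36. The correlation therefore cannot decide whether a relation exists within that range. This was the only such relation computed.

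The ranges crossed the treatments. The lowest held all 3 B9 cows and B12 cow 52, the highest held control cow 51 and B9 + B12 cow 32, and the middle held the other cows of the control, B12 and B9 + B12 groups. The mean of the 4 CIDEA probes ran from 12.56 to 13.72 over the mammary arrays and from 8.89 to 9.96 over the liver arrays. The pair difference is a description, since the mammary B9 and control values chose the gene.

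**Figure D2:**
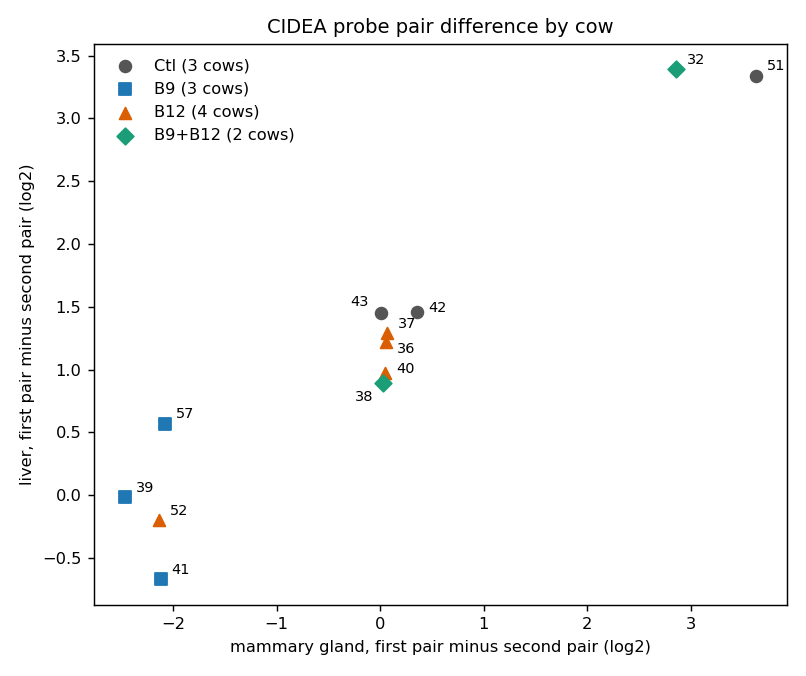
CIDEA pair difference (mean log2 signal of A_73_100290 and A_73_P472288 minus that of A_73_P436496 and A_73_P044521) in the mammary gland (horizontal axis) and the liver (vertical axis) of the 12 cows with both tissues, numbered and marked by treatment. Cows 39, 41, 52 and 57 lie lowest in both tissues, cows 32 and 51 highest, and 6 cows lie between.

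Under B9 in the mammary gland, the first pair was lower and the second pair higher than in control cows. These are the values on which the family was picked. The log2 signal of A_73_100290 was 15.50, 15.18 and 16.29 in control cows 42, 43 and 51, and 13.48, 13.69 and 14.05 in B9 cows 39, 41 and 57. All 3 B9 cows lay below all controls, with a mean difference of -1.91 (SE 0.45), and A_73_P472288 differed by -1.79 (SE 0.46). The log2 signal of A_73_P436496 was 13.47, 13.40 and 10.92 in the same control cows and 14.30, 14.19 and 14.45 in the B9 cows. Again the groups did not overlap. The difference was 1.72 (SE 0.61), and it was 1.69 (SE 0.62) for A_73_P044521. Control cow 51 lay far below the other controls in the second pair, and without it the differences were 0.88 and 0.86, against -1.59 and -1.47 for the first pair. All 4 CIDEA probes, and no other CIDE probe, had non-overlapping groups there, where 7.00% of all probes had. The mean of the 4 probes differed by -0.074 (SE 0.23). On the only slide that held both groups, B9 cow 39 minus control cow 51 gave -2.8 and -2.68 for the first pair and 3.38 and 3.31 for the second.

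**Figure D3:**
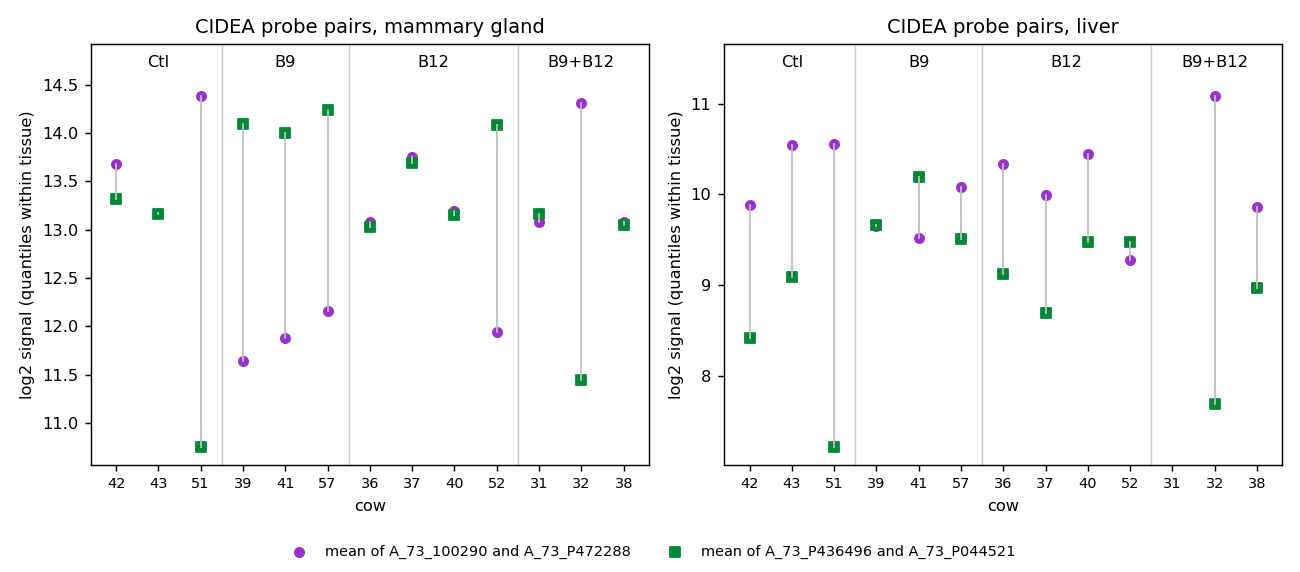
Mean log2 signal of the first CIDEA pair (circles) and the second pair (squares) by cow, in the mammary gland (left) and liver (right), with cows ordered by treatment and a grey line joining the pairs of a cow. The mammary circles of B9 cows 39, 41 and 57 and of B12 cow 52 lie lowest, and the squares of cows 51 and 32 lie lowest. The height of circles against squares is not comparable.

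The livers of the B9 cows were compared with those of the control cows by test. They came from the same cows on whose mammary signals CIDEA was selected, and the pair difference kept its order of ranges between the tissues, so for CIDEA this is not an independent comparison. The log2 signal of A_73_P436496 was 8.46, 9.24 and 7.36 in control cows 42, 43 and 51 and 9.81, 10.34 and 9.56 in B9 cows 39, 41 and 57. Every B9 cow lay above every control, as also for A_73_P044521, the other probe of the second pair. The mean of 10 mammary epithelial genes was higher in every B9 liver (9.67 to 10.68) than in every control liver (9.4 to 9.5) too, and its part in these CIDEA values was not tested. The differences were 1.55 (SE 0.46) and 1.54 (SE 0.46), with a raw limma p of 0.00657 and 0.00647, but the adjusted p was 0.891 for both, and the exact two-sided permutation p of 0.1 is the smallest for 3 cows against 3. Without control cow 51 the differences were 1.05 and 1.01. The first pair overlapped between the groups, with differences of -0.77 (SE 0.39) for A_73_100290 and -0.39 (SE 0.34) for A_73_P472288. With the slide as a fixed block, these became 0.21 and 0.55. On the single slide with both groups, B9 cow 57 minus control cow 42 gave 0.043 and 0.35 for the first pair and 1.1 and 1.08 for the second.

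No CIDE probe was called in the liver under B9 (limma; 0% of all probes called, and 2 of 7 CIDE probes at a raw p below 0.05). Both of these belonged to the second CIDEA pair and were also the 2 whose groups did not overlap, against 8.44% of all probes. The methods' Cyber-T test, which pools the variance of probes of like signal, called none of the 7 either, with an adjusted p of 0.446 for the second pair, and it called none of the CIDE probes tested in the other comparisons, which leave out CIDEA in the mammary gland under B9. The share of all probes that Cyber-T called was not computed, so these counts have no array-wide share beside them. The mean of the 4 CIDEA probes was higher by 0.48 (SE 0.23, limma adjusted p = 0.891).

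Under B12, CIDEA values spread widely and no CIDE probe was called in either tissue. Of all probes, 0.00229% were called in hepatic and 0% in mammary tissue, and 4.96% and 3.86% had non-overlapping groups, against none of the 7 CIDE probes. In the liver, A_73_P436496 was 9.36, 8.86, 9.66 and 9.64 in B12 cows 36, 37, 40 and 52, so that 3 of 4 lay above all controls. The difference was 1.03 (SE 0.43), with an exact permutation p of 0.0857, a raw limma p of 0.0368 and an adjusted p of 1. It was the only CIDE probe with a raw p below 0.05, and without control cow 51 the difference was 0.53. Within slides it was 2.3 (cow 40 minus control cow 51) and -0.38 (cow 37 minus control cow 43), of opposite sign. On the mammary arrays, A_73_100290 was 14.99, 15.73 and 15.20 in cows 36, 37 and 40 and 13.91 in cow 52. Cows 36 and 52 lay below all controls, cow 36 narrowly. The B12 difference was -0.7 (SE 0.42, limma adjusted p = 1), and -0.35 without cow 52. For the second pair it was 1.08 (SE 0.57) and 1.07 (SE 0.58), and without control cow 51 it was 0.24 for both probes. No CIDE probe had a raw p below 0.05 in the mammary gland under B12 by limma, against 4 of 7 by Cyber-T, the 4 CIDEA probes, with an adjusted p of 1. The control values in these tests were among those on which CIDEA was selected, so this count is not independent of that choice. The share of all probes at such a raw p was not computed.

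Under B9 + B12 the CIDEA means lay close to those of the controls, with cows far apart on either side. Mammary A_73_100290 was 15.03, 16.21 and 14.98 and A_73_P436496 was 13.28, 11.70 and 13.29 in cows 31, 32 and 38. Cow 32 carried the highest value of the former and the lowest of the latter. The 4 CIDEA differences ranged from -0.26 to 0.16 in mammary tissue and from 0.07 to 0.21 in the liver, where only cows 32 and 38 were measured. These means rested on single cows. Liver A_73_100290 was at -0.54 without cow 32 and 0.68 without cow 38, and liver A_73_P436496 at 0.73 and -0.56. Mammary A_73_100290 was at -0.65 without cow 32, and mammary A_73_P436496 at 0.69 without cow 32 and -0.68 without control cow 51. No CIDE probe was called or had a raw p below 0.05 (limma; 0% of all probes called in hepatic and 0% in mammary tissue).

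The 2 × 2 interaction asked whether B9 + B12 differed from the sum of the separate vitamins. In the liver it was -2.49 (SE 0.67) for A_73_P436496 and -2.33 (SE 0.67) for A_73_P044521, with raw limma p of 0.00359 and 0.00509 and an adjusted p of 1. The first pair gave 1.23 (SE 0.57) and 0.84 (SE 0.5), but 0.62 and 0.22 without cow 32, and 1.84 and 1.45 without cow 38, the only B9 + B12 livers. No CIDE probe was called (limma; 0% of all probes called), and these 2 were the only ones with a raw p below 0.05. For the mammary gland, where the contrast holds the groups on which CIDEA was picked, the values were 2.36 (SE 0.61) for A_73_100290 and -2.63 (SE 0.83) for A_73_P436496. The pairs again had opposite signs in both tissues. Of the 3 CIDEB and CIDEC probes tested there, none was called or had a raw p below 0.05, with 0% of all probes called.

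**Figure D4:**
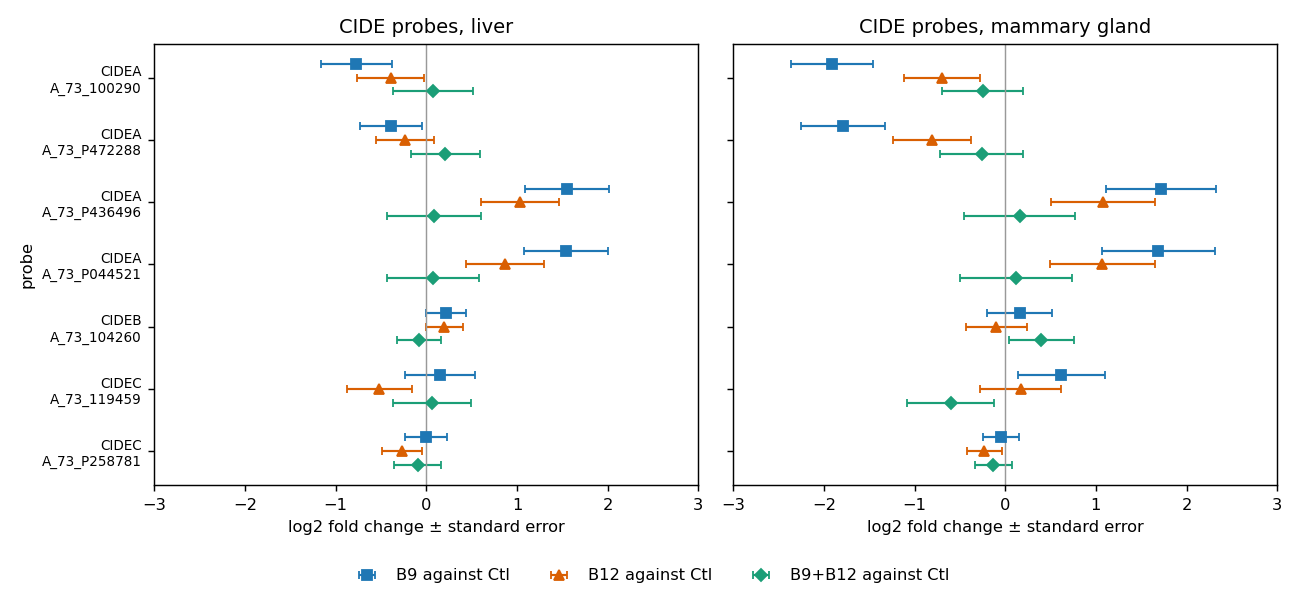
Log2 difference between treated and control cows for each CIDE probe, with the standard error of limma as bars, in the liver and mammary gland under B9, B12 and B9 + B12. The CIDEA pairs lie on opposite sides of 0 under B9 and B12 in both tissues. The CIDEB and CIDEC values lie within 0.62 of 0, and no tested CIDE probe was called.

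CIDEB is known mainly from the liver, where no treatment difference passed the test. Its log2 signal was 14.18, 14.24 and 14.65 in control cows 42, 43 and 51, and 14.38, 14.62 and 14.72 in B9 cows 39, 41 and 57. The B12 cows lay between 14.23 and 14.96, and the B9 + B12 cows were at 14.37 and 14.19. All groups overlapped the controls. The differences were 0.22 (SE 0.22) under B9, 0.2 (SE 0.2) under B12 and -0.078 under B9 + B12. These small values moved with the processing, to 0.58 under B9 and 0.049 under B12 with the slide as a fixed block, and to 0.33 under B9 + B12 with the processed signal. Under B12 the value was 0.065 without cow 36. On the mammary arrays, where its level was low, the group means were 7.21 ± 0.53 (SD, n = 3) in control, 7.37 ± 0.57 (n = 3) in B9, 7.12 ± 0.56 (n = 4) in B12 and 7.61 ± 0.24 (n = 3) in B9 + B12 cows. The treated groups overlapped the controls, and the largest difference from control was 0.4 (SE 0.36, limma adjusted p = 1), under B9 + B12, which was 0.18 without control cow 42 and 0.69 without control cow 51.

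CIDEC overlapped the controls in the liver under all 3 treatments. The log2 signal of A_73_119459 was 9.15, 9.73 and 9.60 in control cows 42, 43 and 51, and 8.93, 9.71 and 10.31 in B9 cows 39, 41 and 57. The difference was 0.15 (SE 0.39), but 1.15 with the slide as a fixed block. Cow 57 minus control cow 42, the B9 and control arrays that shared a slide, was also 1.15. In B12 cows 36, 37, 40 and 52 the signal was 8.85, 8.68, 9.87 and 8.50. Cow 40 lay above all controls and the other 3 below them. The B12 difference was -0.52 (SE 0.36, limma adjusted p = 1), with an exact permutation p of 0.229, and it was -0.82 without cow 40. Under B9 + B12 the difference was 0.06. The second CIDEC probe followed the first from cow to cow, with a correlation within groups of 0.958 over 12 liver arrays, and its differences were -0.0037, -0.27 and -0.096.

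Mammary CIDEC was low, and its cows spread most under B9. The log2 signal of A_73_119459 was 6.25, 5.96 and 5.59 in control cows 42, 43 and 51 and 7.10, 7.33 and 5.22 in B9 cows 39, 41 and 57. Thus 2 B9 cows lay above all controls and 1 below. The difference was 0.62 (SE 0.48, limma adjusted p = 1) with an exact permutation p of 0.4, and it was 1.28 without cow 57 and 0.23 without cow 41. Adipocytes, which make CIDEC, could be present in a gland biopsy: the mean of 8 adipocyte genes was 7.95 to 8.37 in B9 cows and 8.02 to 8.15 in control cows. In B9 cows 39, 41 and 57 it was 7.95, 8.37 and 8.16. The list mixes bright FABP4 (14.57 to 15.7) with dim LEP and PLIN1, each above background on 9 of 13 mammary arrays. The part of adipocytes in the CIDEC values was not tested. In B12 cows the CIDEC signal was 5.64, 5.70, 7.02 and 6.06, a difference of 0.17 (SE 0.45).

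Under B9 + B12 the mammary CIDEC signal was 5.19, 5.38 and 5.43 in cows 31, 32 and 38, below all 3 controls. The difference was -0.6 (SE 0.48, limma adjusted p = 1), and the exact permutation p of 0.1 is the smallest possible here. By Cyber-T the raw p was 0.00156 and the adjusted p 0.619. This probe was 1 of 7 CIDE probes without overlap, where 6.88% of all probes had none. In the liver none of the 7 did, where 21.7% of all probes had none with 2 cows against 3. Within the 3 slides that held both groups the CIDEC difference was -1.06, -0.58 and -0.16. The range when single cows were left out was -0.77 to -0.44, and over the other settings it was -1.15, with the processed signal, to -0.36, with the scanner median signal. The interaction for this probe was -1.39 (SE 0.66, limma adjusted p = 0.999). The dim probe A_73_P258781 differed by -0.05, -0.23 and -0.13 under B9, B12 and B9 + B12, and its correlation with A_73_119459 in the mammary gland was 0.42.

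No CIDEB or CIDEC probe was called in the mammary gland under B9, where 0% of all probes were called, and none of the 3 had a raw p below 0.05. Treatment effects were also compared between the tissues. No tested CIDE probe was called for a difference in effect between mammary gland and liver (limma, smallest adjusted p = 0.777, no raw p below 0.05). This covered the 3 CIDEB and CIDEC probes under B9 and all 7 probes under B12 and B9 + B12, and 0%, 0.00229% and 0% of all probes were called. For CIDEA under B9, given as a description, the mammary minus the liver effect was -1.15 (SE 0.63) for A_73_100290 and 0.17 (SE 0.82) for A_73_P436496. The latter was -0.67 without the mammary array and 0.67 without the liver array of control cow 51, so it has no settled direction.

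**Figure D5:**
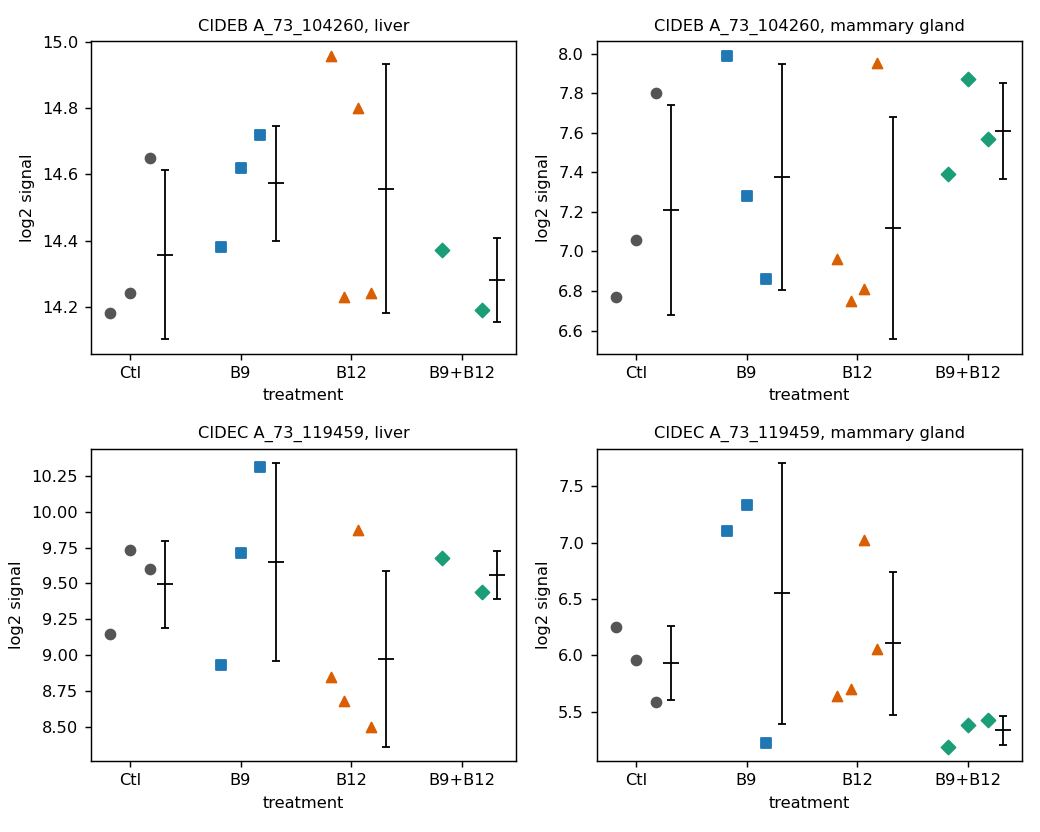
Log2 signal of CIDEB and of CIDEC A_73_119459 by treatment in the liver and the mammary gland, normalised within each tissue. Points are cows, and bars are the group mean ± SD. CIDEB treated cows overlap the controls in both tissues, and the 3 mammary CIDEC values of B9 + B12 cows, 5.19 to 5.43, lie below the 3 controls.

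The genes whose signal ran most like that of a CIDE probe were ranked by Pearson correlation over the arrays of a tissue, as a description over arrays that share cows and treatments. Over the mammary arrays (13 arrays, 8483 genes), A_73_100290 was most like MMAA (0.779), LHPP (0.772) and BIN2 (0.753). A_73_P436496 was most like DNAJC3 (0.836), MYO1D (0.816) and MGP (0.792). CIDEC A_73_119459 was most like PHETA2 (0.88), TRARG1 (0.874) and PMVK (0.839). TRARG1 is a protein of GLUT4 vesicles known from fat and muscle, and PMVK an enzyme of the mevalonate pathway. In the liver (12 arrays, 8963 genes), CIDEB was most like ATP5MC2 (0.916), PTGES2 (0.915) and FADD (0.911), and CIDEC like RENBP (0.881), GALK1 (0.876) and TRPC4 (0.869). Among the CIDE probes themselves, CIDEB in the liver correlated within groups with A_73_100290 at 0.697 and with CIDEC A_73_119459 at 0.606, but over all liver arrays, as ranked here, at 0.256 and 0.349.

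Other genes of lipid droplets and their traffic were read from 8 lists. In the 6 comparisons of treated with control cows no gene of any list was called by limma, and at most 3 genes of a list had a raw p below 0.05 in a comparison. Of 122 differences of named list genes, 96 moved by over 1.5 times and 37 turned sign when some single array was left out, so the values below are descriptions of few cows. Of 13 lipid droplet proteins, the median difference was 0.065, 0.057 and 0.073 in the liver under B9, B12 and B9 + B12, and 0.099, -0.033 and 0.055 in the mammary gland. The median over all probes was between -0.0012 and 0.022. PLIN2 had the highest value of the list in the liver under B9 (0.54, SE 0.25) and in the mammary gland under B12 (0.59, SE 0.54), where it was -0.1 without cow 52. HSD17B11, a dehydrogenase located on droplets, had the lowest in the liver under B9 (-0.68, SE 0.5, but -0.19 without cow 57). PLIN1 stayed within 0.1 of the controls in both tissues.

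Among 6 lipolysis genes, G0S2, the inhibitor of adipose triglyceride lipase, had the highest value in each comparison. Its liver difference was 1.65 (SE 0.57) under B9, 1.94 (SE 0.53) under B12 and 1.52 (SE 0.64) under B9 + B12, with limma adjusted p of 0.891, 1 and 0.664. Under B9 + B12 it was 0.96 without cow 38 and 2.08 without cow 32. Under B12 in the liver the Cyber-T test called it (adjusted p = 0.0043), the only such call among the list genes that were named by the rule. The share of all probes that Cyber-T called there was not computed. The mammary differences of G0S2 were 0.58, 0.68 and 0.74. The list medians ran from -0.028 to 0.25. LIPA, the lysosomal acid lipase, was lowest in the liver under B9 (-0.41, SE 0.16), but another LIPA probe gave -0.022 there.

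Of 7 triglyceride synthesis genes, GPAM, the mitochondrial acyltransferase of the first step, was lowest in the liver in all 3 comparisons, at -0.84 (SE 0.28), -0.9 (SE 0.26) and -1.09 (SE 0.31). AGPAT3 was highest under B9 (0.85, SE 0.28, but 0.49 without cow 57). Mammary DGAT2, of the last step, was highest under B9 (0.66, SE 0.26) and B12 (0.46, SE 0.24). None of these values passed the test. The list medians lay between -0.009 and 0.27.

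The 9 milk fat globule genes had mammary medians of 0.065, -0.18 and 0.016. BTN1A1 differed there by 0.011 (SE 0.13), -0.18 (SE 0.12) and -0.06 (SE 0.13), and XDH by 0.09, -0.22 and 0.025 (SE 0.21 to 0.22), so that the genes of globule release lay near the controls in the gland where CIDEA is high. In the liver XDH was lower by 0.64 under both B9 and B9 + B12 without passing the test. Of 7 VLDL genes, liver medians were 0.34, 0.00065 and 0.11, and MTTP gave 0.35 (SE 0.31), 0.24 (SE 0.29) and -0.13 (SE 0.35). Another MTTP probe gave -0.092, -0.051 and -0.41 in the same order. PDIA2 was highest (0.79, SE 0.38) and SAR1B, of the coat of transport vesicles, lowest (-0.53, SE 0.45, but -0.0085 without cow 57) under B9.

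The medians of the remaining lists were close to 0. Among 11 transcription factors known to act on CIDE genes, CEBPB was lowest in the mammary gland, at -0.63 (SE 0.42), -0.66 (SE 0.39) and -0.43 (SE 0.42), which became -0.17 under B9 without cow 57, and -0.24 under B12 and -0.0059 under B9 + B12 without control cow 51, and PPARGC1A was lowest in the liver under B9 (-0.66, SE 0.37) and B9 + B12 (-0.69, SE 0.41). PPARG differed by -0.25 (SE 0.21) in the mammary gland and by 0.24 (SE 0.2) in the liver under B9. The medians of this list were between -0.029 and 0.12. DFFA and DFFB ranged from -0.18 to 0.25 over the 6 comparisons. Of 4 AMPK subunits, PRKAA1, a catalytic subunit, was highest in the liver under B9 + B12 (1, SE 0.62, 2 cows) and lowest in the mammary gland under B9 (-0.44, SE 0.54, but 0.18 without cow 57), and the medians ran from -0.13 to 0.11.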

How the data were processed

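Total RNA of liver and mammary biopsies was hybridised to 1-colour Agilent bovine arrays. The authors deposited scanner intensity values for each array, and a table of log2 values that are background-corrected and equalised by quantiles within each tissue. The scanner files name Agilent Feature Extraction 10.7.3.1 and the submitters' processing notes version 9.1. A normexp correction with an offset of 16 and quantile normalisation of the deposited scanner intensities gave the deposited log2 table to a median absolute difference of 0.00186 (liver) and 0.000959 (mammary gland).

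Treatments were compared on the deposited log2 values with limma 3.58.1 in R 4.3.3, all groups of a tissue in 1 fit, over 43653 non-control probes with Benjamini-Hochberg adjustment. Calls needed at least 2-fold and an adjusted p no higher than 0.05. Tissues were compared on scanner median signals (normexp offset 50, quantiles over all arrays). Single probes were tested by exact permutation over cows. Probes were named through RefSeq accessions, which gave 53.9% of probes a symbol, and the number of arrays limits the precision.

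The CIDE genes, the lists and the rule for named genes were chosen with earlier results of these data known. The rule named, from each list and comparison, the genes with the highest and lowest value (examples are printed), and PLIN1, PLIN2, BTN1A1, XDH, DFFA, DFFB, PPARG and MTTP throughout, each by its brightest probe in the tissue.

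Liver and mammary arrays pair by animal. Over all probes, deviations from group means in the liver and gland of a cow correlated by -0.251 to 0.215 (median 0.0371), above 0.1 in 2 of 12 cows. Other background corrections, scalings, filters, slide and cow blocks, array weights, Cyber-T (window 101, confidence 10), gene means and the omission of each array were tried. The omission of the 4 arrays with the most of the other tissue's markers, and the pair difference in other value sets, were added after seeing the data. Scripts were tested on simulated data.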

Additional observations from a re-analysis of the deposited data

Results flagged for a closer look

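In groups of 4 arrays, the gap of the most extreme array to its neighbour was compared with the whole range of the group. Of 16 groups of CIDE values tested, 2 had a gap past the critical value of Dixon's gap test, which chance passes in about 5% of groups. In the liver of B12 cows, CIDEC A_73_P258781 was 6.50 in cow 40 and 5.83, 5.86 and 5.81 in cows 36, 37 and 52, a gap of 0.918 of the range. Cow 40 was also the highest of these for the other CIDEC probe, at 9.87. For the mammary gland of B12 cows, the CIDEA pair difference was -2.14 in cow 52 and 0.049 to 0.064 in cows 36, 37 and 40, a gap of 0.993 of the range. In the liver of cow 52 the pair difference, at -0.2, was also the lowest of the B12 cows.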

How the results depend on the processing

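With 2 to 4 cows in a group, some differences well above 2-fold did not pass the limma test either. In the liver under B9 this held for CIDEA A_73_P436496, at a log2 difference of 1.55 (limma adjusted p = 0.891). CIDEC A_73_P258781 was mostly at background in the mammary gland. The count of called CIDE probes was 0 under every alternative run for each treatment comparison, interaction and difference in effect between tissues. Between tissues it was 6 of 7, but 7 with the deposited within-tissue values and with the processed signal scaled to the 75th percentile, where CIDEC A_73_P258781 was called too (-2 with the latter). The cow as a replicate block gave 0 and 6. A change of direction was counted only for results whose reported value exceeded its standard error, whatever the error of the alternative's value. The count of CIDE probes at a raw p below 0.05 moved more than the calls: for the mammary gland under B12 it was 0 of 7, but 4 with Cyber-T, array weights or the slide as a fixed block, and for the liver interaction 2, but 0 with the slide as a fixed block. For the mammary gland under B9 + B12 it was 0 of 7, but 1 with Cyber-T or with only the groups compared. Averaging all probes of CIDEA, whose pairs run against each other, gave 0.48 in the liver under B9, 0.32 under B12 and -0.69 for the interaction, and -0.074, 0.16 and -0.14 in the mammary gland, turning the direction of 1 pair each time. With the slide as a fixed block, which leaves 1 slide with both groups, the liver B9 values were 0.21 for CIDEA A_73_100290, 0.55 for A_73_P472288 and -0.62 for MTTP. With normexp and 75th percentile scaling, CIDEC A_73_P258781 was 0.53 higher in the mammary gland than in the liver, PRKAB2 was 0.26 in the liver under B9 + B12, and TM6SF2 -0.13 in the mammary gland under B12. The cause of these last 3 was not tested. The 3 ranges of the CIDEA pair difference stayed apart in both tissues in all 6 other value sets, by as little as 0.17 in the liver.

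Of 42 treatment differences of CIDE probes, 36 moved by over 1.5 times when some single array was left out, and 19 turned sign, whatever their size. Among values of CIDE probes and list genes above their standard error, leaving out single cows turned 9. In the liver they ranged from -0.0052 to 0.38 for PPARG under B9, and from -0.063 to 0.57 for DFFB and -1.39 to 0.0054 for PPARGC1A under B9 + B12. Mammary values ranged under B9 from -0.084 to 0.86 for APOC3, -0.53 to 0.0036 for LIPA and -0.4 to 0.044 for PPARG, under B12 from -0.36 to 0.013 for CIDEC A_73_P258781 and -0.1 to 0.84 for PLIN2, and under B9 + B12 from -0.12 to 0.72 for HILPDA.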
